A study of Mus musculus with 12 samples.

Results

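The 33 genes described here encode the integrins and laminins of epithelial cells and their partners in the basement membrane: integrin alpha and beta subunits, laminin alpha, beta and gamma chains, the nidogens, perlecan (Hspg2), agrin (Agrn) and dystroglycan (Dag1). They were chosen by name, as the table rows whose Entrez ID maps to these mouse symbols, out of 27179 genes in the table. All 33 had a row. Of these, 28 reached a normalized count of 10 in at least 1 library and all 28 were also tested. The other 5, Itga8, Itga11, Lama2, Lama4 and Lamc3, stayed under 10 in every library and are treated as not measured.

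The study sequenced poly(A) RNA from mIMCD3 cells, an immortalised mouse kidney epithelial line of inner medullary collecting duct origin. There were 12 libraries in 4 groups of 3. One group was the line labelled Actr3 KO-1, a knockout of the gene for the Arp3 subunit of the actin-branching Arp2/3 complex, given 0.5 µM Ciliobrevin D in its last medium. Ciliobrevin D is a small molecule that blocks dynein motors. Another was a double knockout line of Actr3 and Ift88 (dKO), Ift88 being an intraflagellar transport gene needed to build primary cilia. A further group was Actr3 KO-1 without the inhibitor (called Actr3 KO below), and the last was a wild-type control line. In every group the cells had 48 h in medium with 10% FCS to become confluent, followed by 24 h of starvation of serum, and the groups without the inhibitor are described as given solvent. By the sample titles each genotype is represented by 1 cell line, so a difference between genotypes and a difference between lines cannot be told apart. Nothing in the labels states that replicate libraries stem from different cultures, so the p-values measure the spread between these libraries, which may be technical. The titles list 3 replicates of the control line Ctrl.-1, but the table names its control columns Ctrl.-1 replicates 1 and 3 and Ctrl.-2 replicate 1. That last column was taken as a control without a number of its own, and whether it is a second control line is not known. Without it, 18 of the genes described here were called higher and 4 lower in Actr3 KO than in control, 7 higher and 16 lower in dKO, and 15 higher and 7 lower with ciliobrevin D. Of all 13939 genes tested, the same fits called 4428 higher and 4666 lower in Actr3 KO than in control. They called 4228 higher and 4642 lower in dKO, and 4258 higher and 4094 lower with ciliobrevin D.

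Laminins are cross-shaped proteins of 1 alpha, 1 beta and 1 gamma chain that polymerise into the sheet on which an epithelium sits. Nidogens, perlecan and agrin tie that sheet to collagen IV and to growth factors, and cells hold on to it through integrins, which are pairs of 1 alpha and 1 beta subunit, and through dystroglycan. In the collecting duct the main laminin of the mature basement membrane carries the alpha5 chain, and integrins that contain the beta1 subunit are needed for the duct to branch and to keep its epithelium intact.

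Recovered reads numbered 28902562 to 38077987 a library. Actr3 stood at normalized counts of 1399.5, 1562 and 1759 with ciliobrevin D, 870.0, 833 and 911 in dKO, 1347, 1145 and 1163 in Actr3 KO and 8101, 8243 and 8664 in control, so the 9 edited libraries were all below the 3 control libraries. Ift88 had 443, 438 and 434 with ciliobrevin D, 633, 573 and 606 in dKO, 656, 602 and 594 in Actr3 KO and 471, 441 and 458 in control. The dKO and Actr3 KO values of Ift88 overlapped, so the gene-level count does not check the Ift88 edit and the dKO libraries go by their label. Of 12 collecting duct and tubule epithelium markers 11 were measured: Epcam, Cdh1, Krt7, Krt8, Krt18, Krt19, Pax2 and Pax8 stood at 2868 or more in every library, while Aqp2, the water channel that defines principal cells, was at 0 to 1.86, Aqp3, a basolateral water channel, at 1.23 to 17.3 and Gata3, a transcription factor of the duct, at 15.3 to 86.4. Of the 11 tested, 8 were lower and 1 higher in Actr3 KO than in control (median log2 fold change -0.83), led by Krt19, Krt8 and Krt18, and 2 were lower and 7 higher in dKO than in Actr3 KO (median 0.38). With ciliobrevin D against Actr3 KO, 4 were higher and 4 lower (median 0.21). Of all genes tested, 34.4% were higher and 35.4% lower in Actr3 KO than in control. The shares were 32.5% and 33.2% in dKO, and 32.7% and 32.9% with ciliobrevin D, each against Actr3 KO. The part of these marker shifts in the results below was not tested. Of 19 markers of other kidney and stromal cell types 10 stayed under 10 everywhere. Their summed level ran from 12440 to 12943 with ciliobrevin D, 5663 to 6873 in dKO, 15012 to 17788 in Actr3 KO and 10993 to 13153 in control, most of it from Lrp2, an endocytic receptor of the proximal tubule, while Slc34a1, the defining phosphate transporter of that tubule, was at 0 in every library. The sum was thus highest in Actr3 KO and lowest in dKO, as were many of the genes below, and its part in the results was not tested. In bulk RNA, fewer cells of a type and less RNA per cell cannot be told apart.

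As a group, the basement membrane and integrin genes stood high in Actr3 KO cells and low in dKO cells. Against control, 19 of the 28 tested genes were higher in Actr3 KO and 4 lower, where 34.4% of all 13939 genes tested were called higher and 35.4% lower by limma at a Benjamini-Hochberg adjusted p under 0.05. Against Actr3 KO, 24 were lower in dKO and 1, Nid1, was higher, where 33.2% of all genes were lower and 32.5% higher. Ciliobrevin D gave a mixed picture against untreated Actr3 KO, with 14 of 28 lower (background 32.9%) and 5 higher (background 32.7%). The median log2 fold change of the 28 genes was 0.65 in Actr3 KO against control, -0.90 in dKO against Actr3 KO and -0.23 with ciliobrevin D against Actr3 KO, while the medians of all genes lay within 0.02 of 0. These 3 comparisons share the Actr3 KO libraries. In this group, replicate 3 held the highest value for 24 of the 28 genes.

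The comparisons that do not use the untreated Actr3 KO libraries gave the following counts. Against control, dKO had 16 of 28 genes lower (background 35.1%) and 9 higher (background 32%), with a median log2 fold change of -0.37. Ciliobrevin D-treated Actr3 KO had 15 higher than control (background 33%) and 7 lower (background 32%), with a median of 0.33. Set directly against dKO, ciliobrevin D-treated Actr3 KO had 20 genes higher (background 37%) and 6 lower (background 36.3%), with a median of 0.83. The values of the 2 groups did not overlap for 26 of the 28 genes in that last comparison, against 75.5% of all genes tested. They did not overlap for 26 in dKO against Actr3 KO (71.2% of all genes), 26 in dKO against control (72%), 24 in Actr3 KO against control (73.3%), 22 in ciliobrevin D against control (67.8%) and 20 in ciliobrevin D against Actr3 KO (68.1%).

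**Figure D1:**
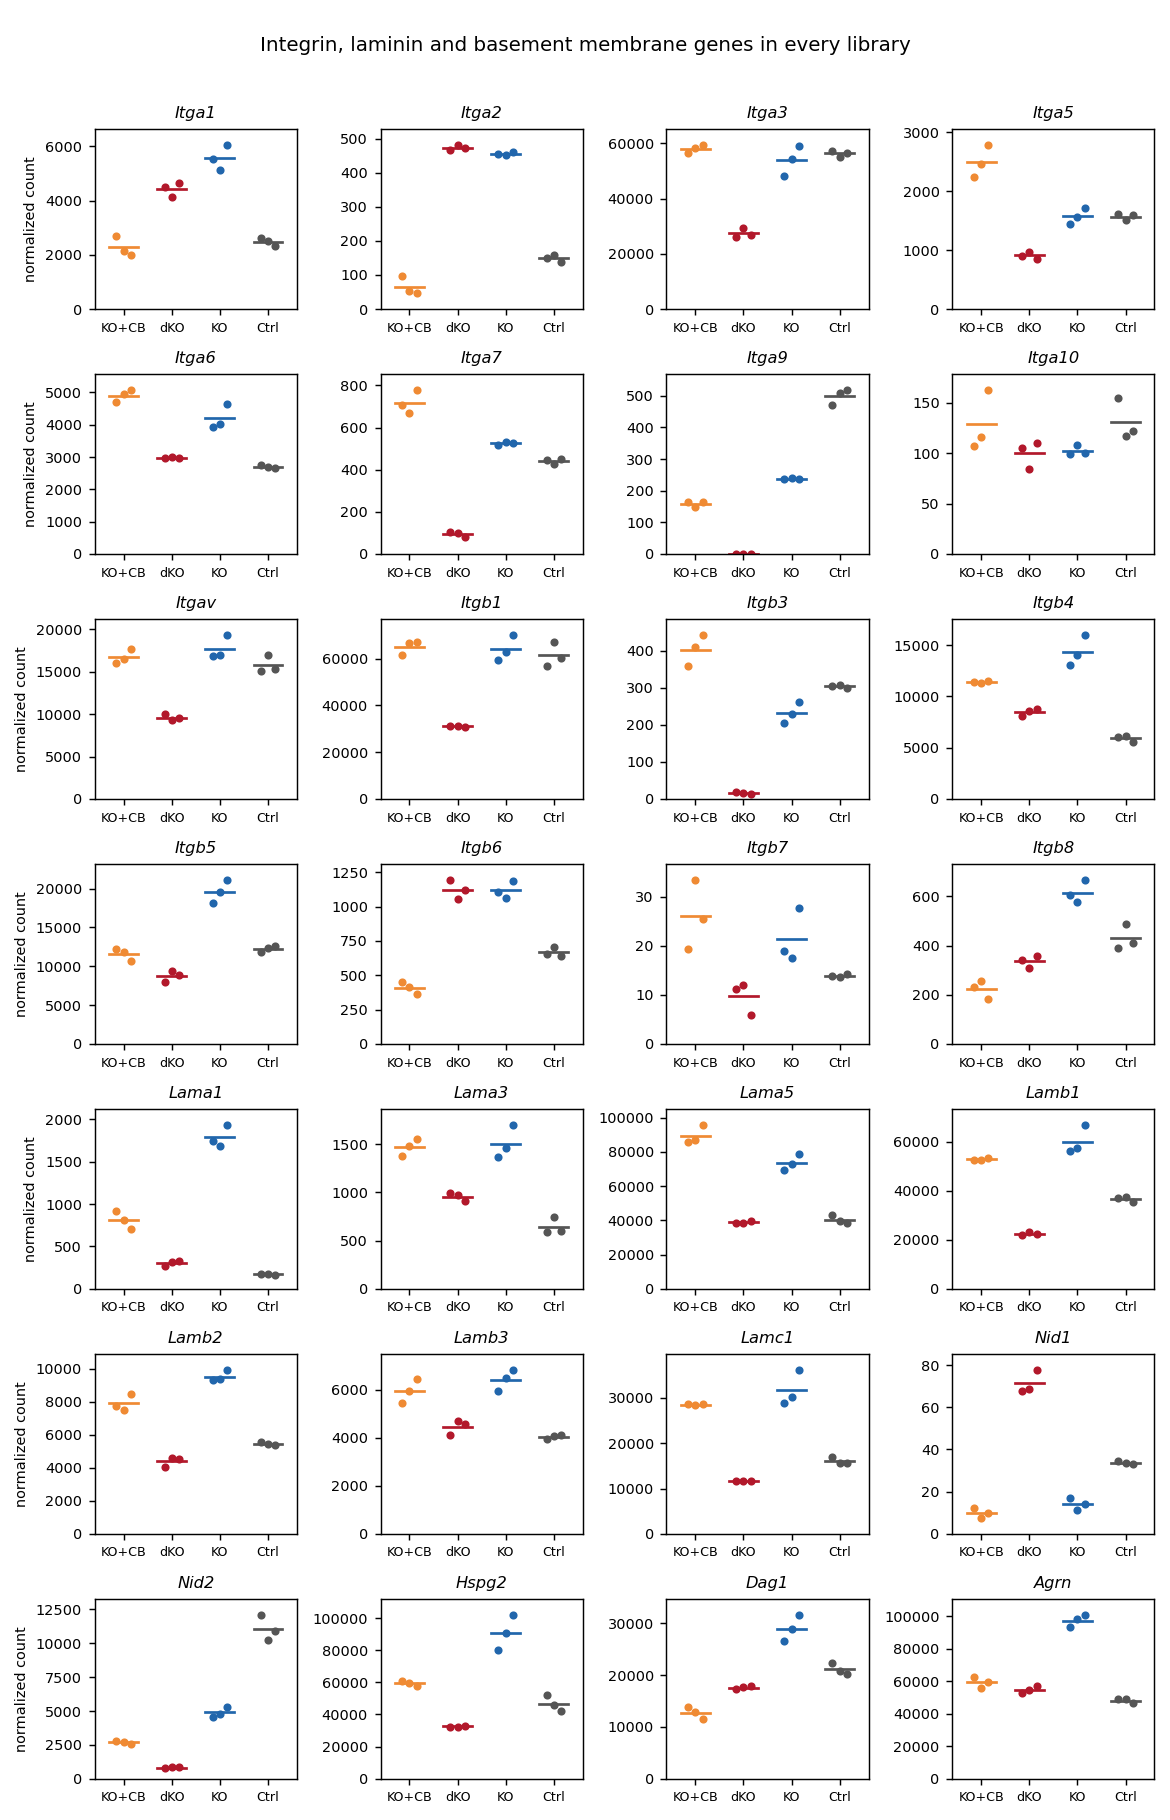
Normalized counts (vertical axis, from 0, a different scale in each panel) of the 28 measured genes in each of the 12 libraries; points are libraries, lines are means of 3, and KO+CB, KO and Ctrl stand for ciliobrevin D-treated Actr3 KO, Actr3 KO and control. Lamc1, Lamb1 and Hspg2 peak in Actr3 KO and are lowest in dKO, Itgb1 and Itga3 are low in dKO alone, and Itga2, Itgb6 and Itgb8 are lowest with ciliobrevin D.

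The laminin chains followed the general pattern most closely: all 7 measured chains were higher in Actr3 KO than in control and all 7 were lower in dKO than in Actr3 KO. Lama5 encodes the alpha5 chain of laminin-511 and laminin-521. It had normalized counts of 86013, 86969 and 95509.8 with ciliobrevin D, 38531, 38470.0 and 39856 in dKO, 69260.0, 73153 and 78861 in Actr3 KO and 43112, 39722 and 38297 in control. The dKO libraries lay within the control range, and the ciliobrevin D libraries were above all others. Lama5 was 1.83-fold higher in Actr3 KO than in control, with a log2 fold change of 0.87 ± 0.08 (SE, adjusted p = 2.17e-09), and 1.89-fold lower in dKO than in Actr3 KO, at -0.92 ± 0.08 (SE, adjusted p = 1.05e-09). With ciliobrevin D it was higher still, by 0.28 ± 0.08 (SE, adjusted p = 0.0031) over Actr3 KO, a call that quantile normalization ended at 0.09 (adjusted p = 0.215). The difference of dKO from control was -0.05 ± 0.08 (SE, adjusted p = 0.577), which was not called. Quantile normalization turned that difference to 0.27 (adjusted p = 0.000425), a call of higher in dKO, so the result depends on the scaling. Over all alternatives the log2 fold change of dKO against Actr3 KO ran from -0.96 to -0.52.

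Lama1 encodes the alpha1 chain of laminin-111, the laminin of early embryonic basement membranes and of some adult kidney tubules. It had normalized counts of 915, 817 and 703 with ciliobrevin D, 272, 314 and 323 in dKO, 1747, 1684 and 1929 in Actr3 KO and 179, 175 and 168 in control. No 2 of the 4 groups overlapped, and Actr3 KO stood above the rest. The 10.2-fold higher level in Actr3 KO than in control, 3.35 ± 0.09 (SE, adjusted p = 6.82e-17) on the log2 scale, was the largest change over control of any of the 28 genes in that comparison. In dKO, Lama1 was 5.88-fold lower than in Actr3 KO, and with ciliobrevin D 2.21-fold lower, log2 fold changes of -2.56 ± 0.09 (SE, adjusted p = 1.65e-15) and -1.14 ± 0.09 (SE, adjusted p = 6.5e-10). Both groups still exceeded control, by 0.79 ± 0.09 in dKO and 2.21 ± 0.09 with ciliobrevin D.

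Lama3 and Lamb3 encode the alpha and beta chains of laminin-332, the laminin that anchors hemidesmosomes. Lama3 had 1377, 1484 and 1559 with ciliobrevin D, 991, 968 and 907 in dKO, 1364, 1461 and 1696 in Actr3 KO and 591, 748 and 596 in control. Control was lowest and dKO intermediate, while the ciliobrevin D and Actr3 KO values overlapped. Its log2 fold change was 1.23 ± 0.09 (SE, adjusted p = 7.83e-11) in Actr3 KO against control and -0.65 ± 0.09 (SE, adjusted p = 1.11e-06) in dKO against Actr3 KO, and -0.03 ± 0.09 (SE, adjusted p = 0.786) with ciliobrevin D, which was not called. Lamb3 had 5450.0, 5964 and 6446 with ciliobrevin D, 4098, 4714 and 4584 in dKO, 5929, 6467 and 6808 in Actr3 KO and 3940.2, 4076 and 4131 in control. Its dKO and control values overlapped, as did its ciliobrevin D and Actr3 KO values. It was higher in Actr3 KO than in control by 0.66 ± 0.07 (SE, adjusted p = 1.42e-08) and lower in dKO than in Actr3 KO, at -0.52 ± 0.07 (SE, adjusted p = 5.14e-07), and dKO was not called against control at 0.14 ± 0.07 (SE, adjusted p = 0.0676), a difference that was called after TMM rescaling (0.16, adjusted p = 0.036) and in several other fits.

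Lamb1, Lamb2 and Lamc1 encode the beta1, beta2 and gamma1 chains that join alpha5 or alpha1 in the common laminins. Lamb1 had 52709.9, 52479 and 53552 with ciliobrevin D, 21985, 23156 and 22492 in dKO, 56189.5, 57529 and 66798 in Actr3 KO and 37057, 37717 and 35518 in control. Each dKO value was below each value of the other groups, and the untreated Actr3 KO libraries were the highest. Lamb1 was 2.66-fold lower in dKO than in Actr3 KO, a log2 fold change of -1.41 ± 0.07 (SE, adjusted p = 3.77e-13), and 1.63-fold lower than in control, at -0.71 ± 0.07 (SE, adjusted p = 1.6e-08). Its small decrease with ciliobrevin D, -0.18 ± 0.07 (SE, adjusted p = 0.0288), rested on Actr3 KO replicate 3: without it the value was -0.10 (adjusted p = 0.175), and leaving out ciliobrevin D replicate 1 or 2 also ended the call, at adjusted p of 0.0581 and 0.0712.

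Lamc1 had 28555, 28461 and 28578 with ciliobrevin D, 11561, 11673 and 11599 in dKO, 28847, 30155 and 36105 in Actr3 KO and 16885, 15557 and 15668 in control. The ciliobrevin D and the dKO libraries each lay close together, and dKO was below control without overlap. Lamc1 was 2.72-fold lower in dKO than in Actr3 KO, -1.44 ± 0.07 (SE, adjusted p = 1.84e-13), and 1.97-fold higher in Actr3 KO than in control, 0.98 ± 0.07 (SE, adjusted p = 6.89e-11). With ciliobrevin D against Actr3 KO the value was -0.15 ± 0.07 (SE, adjusted p = 0.07) and was not called, although edgeR on the recovered reads called it at an adjusted p of 0.0493 and DESeq2 at 0.0418. Lamb2 had 7749.7, 7474 and 8462 with ciliobrevin D, 4026, 4591 and 4532 in dKO, 9283, 9344 and 9900.0 in Actr3 KO and 5529, 5454 and 5351 in control. It was ordered as Lamb1, with no overlap between any of the 4 groups. The log2 fold changes of Lamb2 were 0.80 ± 0.06 (SE, adjusted p = 1.02e-10) in Actr3 KO against control, -1.12 ± 0.06 (SE, adjusted p = 7.14e-13) in dKO against Actr3 KO and -0.27 ± 0.06 (SE, adjusted p = 0.000369) with ciliobrevin D against Actr3 KO.

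Among the linkers of the basement membrane, perlecan and agrin were, like the laminin chains, higher in Actr3 KO than in control and lower in dKO than in Actr3 KO. The nidogens were lower in Actr3 KO than in control. Perlecan is the large heparan sulfate proteoglycan that binds laminin, nidogen and collagen IV. Hspg2 had 61129.8, 59367 and 57852 with ciliobrevin D, 32436, 32329 and 33020.3 in dKO, 79842, 90652 and 101766 in Actr3 KO and 51903, 45991 and 42057 in control. The 4 groups did not overlap, with dKO the lowest and Actr3 KO the highest. Hspg2 was 2.77-fold lower in dKO than in Actr3 KO, a log2 fold change of -1.47 ± 0.09 (SE, adjusted p = 6.28e-12), 1.52-fold lower with ciliobrevin D than in Actr3 KO, -0.60 ± 0.09 (SE, adjusted p = 3.86e-06), and 1.94-fold higher in Actr3 KO than in control, 0.96 ± 0.09 (SE, adjusted p = 4.03e-09).

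Agrin is a heparan sulfate proteoglycan that bridges laminin to dystroglycan. Agrn had 62408, 56109 and 59281 with ciliobrevin D, 52733, 54638 and 57148 in dKO, 93160.3, 98369 and 100681 in Actr3 KO and 48988, 49124 and 46360.0 in control. Actr3 KO was the highest group and control the lowest, and the ciliobrevin D and dKO values overlapped. Agrn was higher in Actr3 KO than in control by 1.02 ± 0.07 (SE, adjusted p = 1.21e-10), lower in dKO than in Actr3 KO, at -0.83 ± 0.07 (SE, adjusted p = 3.22e-09) and lower with ciliobrevin D than in Actr3 KO, at -0.72 ± 0.07 (SE, adjusted p = 3.1e-08). The difference between ciliobrevin D and dKO, 0.11 ± 0.07 (SE, adjusted p = 0.182), was not called; quantile normalization turned it to -0.45, so its direction depends on the scaling. The small excess of dKO over control, 0.19 ± 0.07 (SE, adjusted p = 0.0312), was no longer called without the control library that carries no number (0.16, adjusted p = 0.113), without dKO replicate 2 (0.19, adjusted p = 0.0642) or without dKO replicate 3 (0.16, adjusted p = 0.13).

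Nidogens are the short rods that connect the laminin gamma1 chain to collagen IV. Nid2 had 2818, 2726 and 2570.0 with ciliobrevin D, 761, 837 and 866 in dKO, 4588, 4771 and 5316 in Actr3 KO and 12069, 10209 and 10876 in control. The 4 groups were fully separated, with control highest and dKO lowest. Nid2 was 13.4-fold lower in dKO than in control, a log2 fold change of -3.75 ± 0.07 (SE, adjusted p = 8.33e-21), 5.95-fold lower in dKO than in Actr3 KO, -2.57 ± 0.07 (SE, adjusted p = 7.63e-18), 1.81-fold lower with ciliobrevin D than in Actr3 KO, -0.85 ± 0.07 (SE, adjusted p = 5.48e-10), and 2.26-fold lower in Actr3 KO than in control, -1.18 ± 0.07 (SE, adjusted p = 2.95e-12). In the GENCODE annotation 8.45% of the Nid2 exon bases overlap Rtraf on the opposite strand, and the sources do not state if strand was used in counting.

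Nid1 ran the other way in the double knockout. It had 12.0, 7.41 and 10.0 with ciliobrevin D, 67.9, 68.4 and 77.5 in dKO, 16.9, 11.4 and 14.4 in Actr3 KO and 34.7, 33.4 and 32.9 in control. All 3 dKO libraries were above all others, the control libraries were in the middle, and the Actr3 KO and ciliobrevin D values overlapped at the bottom. Nid1 was 4.80-fold higher in dKO than in Actr3 KO, 2.26 ± 0.24 (SE, adjusted p = 3.78e-08), and 2.08-fold higher than in control, 1.06 ± 0.24 (SE, adjusted p = 0.000548). In Actr3 KO it was lower than in control, at -1.20 ± 0.24 (SE, adjusted p = 0.000136). Its level was low: in reads, dKO held 226, Actr3 KO 43 and control 114 over 3 libraries. Per kb of exon, Nid1 averaged 10.3 in dKO and 4.85 in control, against 159 and 2136 for Nid2 in dKO and control, so Nid2 remained the more abundant nidogen per length in both.

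The 250 bases before the start that RefSeq annotates are shown for 4 of these genes. Lama5, Lamb1 and Hspg2 were higher in Actr3 KO than in control and lower in dKO than in Actr3 KO, and Nid1 had the opposite calls in both. They are RefSeq sequences of build GRCm38.p6, written 5′ to 3′ on the gene's strand, with capitals for GC boxes (GGGCGG or CCGCCC) and for the TEAD motif (GGAATG or CATTCC).
Lama5, chr2:180225860-180226109, minus strand: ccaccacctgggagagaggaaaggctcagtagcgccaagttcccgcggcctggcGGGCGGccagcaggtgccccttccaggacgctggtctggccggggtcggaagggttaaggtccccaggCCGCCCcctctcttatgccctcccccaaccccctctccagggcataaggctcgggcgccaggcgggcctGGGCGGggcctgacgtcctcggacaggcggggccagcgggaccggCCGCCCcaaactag
Lamb1, chr12:31265043-31265292, plus strand: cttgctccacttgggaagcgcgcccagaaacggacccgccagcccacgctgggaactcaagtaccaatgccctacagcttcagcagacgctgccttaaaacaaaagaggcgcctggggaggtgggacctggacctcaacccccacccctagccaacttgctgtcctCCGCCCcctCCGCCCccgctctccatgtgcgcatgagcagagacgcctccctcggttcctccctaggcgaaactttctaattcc
Hspg2, chr4:137468553-137468802, plus strand: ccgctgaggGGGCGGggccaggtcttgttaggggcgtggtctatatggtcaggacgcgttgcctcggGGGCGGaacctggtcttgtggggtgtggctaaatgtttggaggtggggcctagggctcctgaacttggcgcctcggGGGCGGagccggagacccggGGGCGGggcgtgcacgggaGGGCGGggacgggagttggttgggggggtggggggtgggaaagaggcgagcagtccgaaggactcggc
Nid1, chr13:13437352-13437601, plus strand: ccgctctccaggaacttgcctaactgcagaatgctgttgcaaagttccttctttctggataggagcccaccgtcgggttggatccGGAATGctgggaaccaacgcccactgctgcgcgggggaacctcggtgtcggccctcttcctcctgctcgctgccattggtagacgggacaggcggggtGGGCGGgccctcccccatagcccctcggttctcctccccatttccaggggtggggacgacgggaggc
The Lama5 window holds 4 GC boxes, that of Lamb1 2, that of Hspg2 5 and that of Nid1 1, beside 1 TEAD motif in Nid1.

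The RefSeq promoter table had a window for 23 of the 33 genes; Itga6, Itga7, Itgb3, Itgb4, Lama1, Lama3, Lama4, Lamc1, Lamc3 and Nid2 had none. Both strands were searched, and in the 4 windows shown no GC box overlaps a TEAD motif. A GC box was present for 10 of the 23 genes (43.5%), against 35.4% of the 27025 genes with a window. A TEAD motif was present for 4 of 23 (17.4%), namely Itga10, Itgb1, Lamb3 and Nid1, against 14.4% of all genes. The AP-1 motif TGANTCA was in none of the 23, against 7.82% of all genes. The CArG box, the binding motif of serum response factor, was in 2 of 23 (8.70%), Itgb6 and the unmeasured Lama2, against 1.62% of all genes. GC content was 72.4% for Lama5, 62.0% for Lamb1, 70.0% for Hspg2 and 64.4% for Nid1, with a median of 52.4% over all 32851 windows. The windows of Itga9, Itgav, Itgb7 and Lamb3 belong to inner starts and lie inside the gene. So does the inner of the 2 windows of Itga3, Itgb6 and Agrn. The windows printed for Lama5, Lamb1 and Hspg2 reach in part past the outermost start of the gene. These matches describe letters in a window and do not show a bound site.

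**Figure D2:**
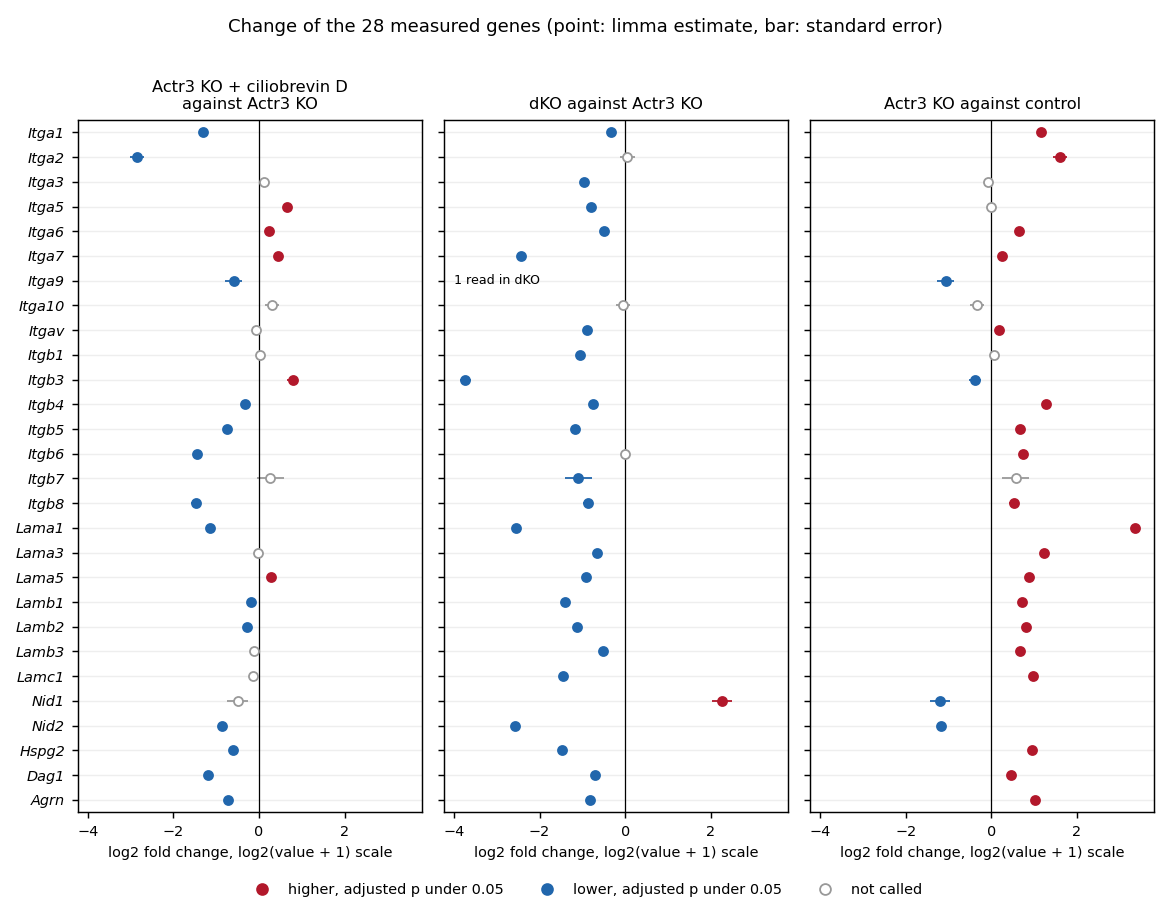
Log2 fold changes on the log2(value + 1) scale (horizontal axis) of the 28 tested genes (rows) in ciliobrevin D-treated Actr3 KO against Actr3 KO (left), dKO against Actr3 KO (centre) and Actr3 KO against control (right); points are limma estimates, bars standard errors, filled points called genes. Nearly all points lie left of 0 in the centre panel, where Nid1 at 2.26 is the 1 called gene on the right; Itga9 is left out of that panel because dKO held 1 read.

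The receptors for laminin split by subunit. The most abundant ones, Itga3 and Itgb1, were not called in Actr3 KO against control and were lower in dKO by about the same amount as each other. Itga3 encodes the alpha3 subunit of integrin alpha3beta1, a receptor for laminin-332 and laminin-511. It had 56349, 58222 and 59245 with ciliobrevin D, 26133, 29398 and 26877 in dKO, 48277, 54405 and 58994 in Actr3 KO and 57238, 55146 and 56696 in control. The dKO libraries were far below the others, which overlapped one another. Itga3 was 2.05-fold lower in dKO than in control, -1.04 ± 0.08 (SE, adjusted p = 1.39e-10), and 1.96-fold lower than in Actr3 KO, -0.97 ± 0.08 (SE, adjusted p = 4.6e-10). The difference of Actr3 KO from control was -0.07 ± 0.08 (SE, adjusted p = 0.432), and that of ciliobrevin D from Actr3 KO was 0.11 ± 0.08 (SE, adjusted p = 0.219). Neither was called, but quantile normalization called the Actr3 KO difference from control lower (-0.18, adjusted p = 0.0123), and leaving out Actr3 KO replicate 3 called the ciliobrevin D difference higher (0.18, adjusted p = 0.049).

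Itgb1 encodes the beta1 subunit shared by the collagen, laminin and fibronectin receptors. It had 61656, 66760.4 and 66997 with ciliobrevin D, 31017, 31084 and 30821 in dKO, 59558, 62976 and 69911 in Actr3 KO and 57031, 67125 and 60355 in control. Again the dKO libraries alone were low, and the other 9 overlapped. Itgb1 was 1.98-fold lower in dKO than in control, -0.99 ± 0.08 (SE, adjusted p = 5.19e-10), and 2.07-fold lower than in Actr3 KO, -1.05 ± 0.08 (SE, adjusted p = 2.27e-10). The log2 differences of Actr3 KO from control, 0.06 ± 0.08 (SE, adjusted p = 0.506), and of ciliobrevin D from Actr3 KO, 0.02 ± 0.08 (SE, adjusted p = 0.799), were not called, and quantile normalization turned both to below 0, at -0.05 and -0.07.

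Integrin alpha6beta4 is the laminin receptor of hemidesmosomes. Itgb4 had 11425, 11326 and 11518 with ciliobrevin D, 8053, 8607 and 8732 in dKO, 13014, 14045 and 15946 in Actr3 KO and 6059, 6103 and 5541 in control. No 2 groups overlapped: control was lowest, then dKO, ciliobrevin D and Actr3 KO. Itgb4 was 2.42-fold higher in Actr3 KO than in control, 1.28 ± 0.06 (SE, adjusted p = 3.82e-13), and 1.69-fold lower in dKO than in Actr3 KO, -0.76 ± 0.06 (SE, adjusted p = 1.36e-09), while dKO stayed above control by 0.52 ± 0.06 (SE, adjusted p = 3.52e-07). On 7.66% of its exon bases Itgb4 overlaps B230344G16Rik on the opposite strand.

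Itga6, the alpha partner of Itgb4, had 4698, 4942 and 5059 with ciliobrevin D, 2978, 2999 and 2972 in dKO, 3938, 4011 and 4652 in Actr3 KO and 2744, 2692 and 2653 in control. The ciliobrevin D values were the highest and the dKO values lay just above control. Itga6 was higher in Actr3 KO than in control by 0.64 ± 0.06 (SE, adjusted p = 3.04e-09) and lower in dKO than in Actr3 KO, at -0.49 ± 0.06 (SE, adjusted p = 1.68e-07). The further increase with ciliobrevin D, 0.23 ± 0.06 (SE, adjusted p = 0.00164), was 0.03 after quantile normalization (adjusted p = 0.602). The small excess of dKO over control, 0.15 ± 0.06 (SE, adjusted p = 0.0295), was not called when control replicate 3 (0.14, adjusted p = 0.064), the control library with no number (0.13, adjusted p = 0.082) or any 1 dKO library was left out, the last with adjusted p of 0.0568 to 0.0668.

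Itga7 encodes the alpha7 subunit, a laminin receptor best known from muscle. It had 706, 669 and 776 with ciliobrevin D, 106, 102 and 82.4 in dKO, 519, 530.2 and 528 in Actr3 KO and 447, 429 and 452 in control. The 4 groups did not overlap, and the dKO libraries were several-fold below the rest. Itga7 was 5.42-fold lower in dKO than in Actr3 KO, a log2 fold change of -2.44 ± 0.09 (SE, adjusted p = 4.79e-15), and 7.38-fold higher with ciliobrevin D than in dKO, 2.88 ± 0.09 (SE, adjusted p = 1.7e-16). With ciliobrevin D it was higher than in Actr3 KO by 0.44 ± 0.09 (SE, adjusted p = 0.000274). The small excess of Actr3 KO over control, 0.25 ± 0.09 (SE, adjusted p = 0.0221), was lost without control replicate 3 (0.23, adjusted p = 0.0694), Actr3 KO replicate 2 (0.24, adjusted p = 0.0538) or Actr3 KO replicate 3 (0.25, adjusted p = 0.0505).

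The collagen-binding subunits Itga1 and Itga2, which pair with beta1, were the pair most reduced by ciliobrevin D among the alpha subunits and fell less or were not called lower in dKO. Itga2 had 96.3, 53.1 and 46.6 with ciliobrevin D, 467, 480.0 and 473 in dKO, 454, 454 and 460.5 in Actr3 KO and 149, 159.7 and 139 in control. The dKO values lay just above those of Actr3 KO, and the ciliobrevin D values were below control. Itga2 was 7.25-fold lower with ciliobrevin D than in Actr3 KO, -2.86 ± 0.17 (SE, adjusted p = 4.61e-12), and 3.05-fold higher in Actr3 KO than in control, 1.61 ± 0.17 (SE, adjusted p = 2.65e-08). The difference of dKO from Actr3 KO was 0.05 ± 0.17 (SE, adjusted p = 0.794) and was not called. The direct comparison of ciliobrevin D with dKO gave -2.91 ± 0.17 (SE, adjusted p = 1.75e-12).

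Itga1 had 2702, 2137 and 1977 with ciliobrevin D, 4486, 4113 and 4645 in dKO, 5538, 5111 and 6029 in Actr3 KO and 2619.6, 2505 and 2326 in control. The ciliobrevin D and control values overlapped, and the dKO and Actr3 KO values stood well above both. Itga1 was 2.46-fold lower with ciliobrevin D than in Actr3 KO, -1.30 ± 0.09 (SE, adjusted p = 3.07e-11), against 1.26-fold lower in dKO, -0.33 ± 0.09 (SE, adjusted p = 0.00191). The direct comparison of ciliobrevin D with dKO gave -0.97 ± 0.09 (SE, adjusted p = 1.84e-09). The difference of ciliobrevin D from control was -0.14 ± 0.09 (SE, adjusted p = 0.16) and was not called, but it was when ciliobrevin D replicate 1 was left out (-0.27, adjusted p = 0.00233). Itga10, a further collagen-binding subunit, ranged from 84.2 to 162 and was called in 1 of the 6 comparisons, dKO against control at -0.39 ± 0.16 (SE, adjusted p = 0.0339). That call was lost without control replicate 1 (-0.27, adjusted p = 0.18) or dKO replicate 2 (-0.27, adjusted p = 0.169), and removing chromosome medians turned it to 0.06. On 33.5% of its exon bases Itga10 overlaps Gm42957 on the same strand, so reads there could belong to either gene.

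Of the receptor subunits for fibronectin, vitronectin and other RGD ligands, Itgb3, Itgav, Itga5, Itgb5 and Itgb8 were lower in dKO than in Actr3 KO, and Itgb6 was not called. Itgb3 showed the largest decrease of the beta subunits in that comparison. It encodes the beta3 subunit of the vitronectin receptor alphavbeta3, and had 359, 409.8 and 442 with ciliobrevin D, 19.5, 16.6 and 13.7 in dKO, 207, 231 and 263 in Actr3 KO and 304, 309 and 299.7 in control. All dKO values were below 20, and the other 3 groups did not overlap one another. Itgb3 was 13.4-fold lower in dKO than in Actr3 KO, -3.74 ± 0.13 (SE, adjusted p = 1.35e-15), and 17.5-fold lower than in control, -4.13 ± 0.13 (SE, adjusted p = 1.4e-16). With ciliobrevin D it was 1.73-fold higher than in Actr3 KO, 0.79 ± 0.13 (SE, adjusted p = 2.26e-05). The decrease in Actr3 KO against control, -0.39 ± 0.13 (SE, adjusted p = 0.0131), was not called without Actr3 KO replicate 1 (-0.30, adjusted p = 0.0774), and the increase of ciliobrevin D over control, 0.40 ± 0.13 (SE, adjusted p = 0.0115), not without ciliobrevin D replicate 3 (0.33, adjusted p = 0.0565).

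Itgav, the alphav partner of several beta subunits, had 16071, 16567 and 17739 with ciliobrevin D, 9989, 9271 and 9531 in dKO, 16879, 17023 and 19302 in Actr3 KO and 15066, 17023 and 15306 in control. Only the dKO libraries stood apart, below all 9 others. Itgav was 1.85-fold lower in dKO than in Actr3 KO, -0.88 ± 0.06 (SE, adjusted p = 1.38e-10), and 1.64-fold lower than in control, -0.72 ± 0.06 (SE, adjusted p = 3.23e-09). Its call in Actr3 KO against control, 0.17 ± 0.06 (SE, adjusted p = 0.0271), was lost without control replicate 1 (0.13, adjusted p = 0.104), the control library with no number (0.14, adjusted p = 0.0926) or Actr3 KO replicate 3 (0.10, adjusted p = 0.166).

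Itga5, the fibronectin receptor subunit alpha5, had 2229.8, 2457 and 2772 with ciliobrevin D, 897, 975 and 855 in dKO, 1442, 1563 and 1711 in Actr3 KO and 1604, 1513 and 1587 in control. The dKO values were the lowest and the ciliobrevin D values the highest, while Actr3 KO and control overlapped. Itga5 was 1.73-fold lower in dKO than in Actr3 KO, -0.79 ± 0.08 (SE, adjusted p = 7.96e-09), and 1.58-fold higher with ciliobrevin D than in Actr3 KO, 0.66 ± 0.08 (SE, adjusted p = 1.25e-07). Actr3 KO against control gave 0.00 ± 0.08 (SE, adjusted p = 0.997).

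Of the other beta subunits that pair with alphav, Itgb6 and Itgb8 were lowest with ciliobrevin D. Like the laminin chains, Itgb5 was higher in Actr3 KO than in control and lower in dKO than in Actr3 KO. Itgb5 had 12288, 11879 and 10719.9 with ciliobrevin D, 8038, 9395 and 8825 in dKO, 18110.5, 19584 and 21072 in Actr3 KO and 11813, 12355 and 12553 in control. Actr3 KO was the highest group and dKO the lowest, with the ciliobrevin D and control values overlapping. Its log2 fold changes were 0.68 ± 0.07 (SE, adjusted p = 1.52e-08) in Actr3 KO against control, -1.16 ± 0.07 (SE, adjusted p = 4.15e-12) in dKO against Actr3 KO and -0.75 ± 0.07 (SE, adjusted p = 3.91e-09) with ciliobrevin D against Actr3 KO. The called decrease in dKO against control, -0.49 ± 0.07 (SE, adjusted p = 1.99e-06), was -0.13 (adjusted p = 0.11) once the median of each chromosome was removed, and the excess of ciliobrevin D over dKO, 0.41 ± 0.07 (SE, adjusted p = 1.4e-05), was then -0.01.

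Itgb6, an epithelial subunit of a receptor that activates latent TGF-beta, had 450.1, 416 and 364 with ciliobrevin D, 1191, 1057 and 1123 in dKO, 1107, 1060.4 and 1187 in Actr3 KO and 654, 705 and 640.4 in control. The dKO and Actr3 KO values overlapped above control, and the ciliobrevin D values lay below control. Itgb6 was 2.73-fold lower with ciliobrevin D than in Actr3 KO, -1.45 ± 0.08 (SE, adjusted p = 1.18e-12), and dKO against Actr3 KO gave 0.01 ± 0.08 (SE, adjusted p = 0.946). The direct comparison of ciliobrevin D with dKO was -1.46 ± 0.08 (SE, adjusted p = 5.32e-13). Itgb8, another subunit of TGF-beta-activating receptors, had 233, 256 and 182 with ciliobrevin D, 341, 309 and 356 in dKO, 604, 577 and 665 in Actr3 KO and 391, 486 and 412 in control. The 4 groups did not overlap, and ciliobrevin D gave the lowest values. Its log2 fold changes were -1.47 ± 0.11 (SE, adjusted p = 2.89e-10) with ciliobrevin D and -0.87 ± 0.11 (SE, adjusted p = 5.94e-07) in dKO, both against Actr3 KO, and 0.52 ± 0.11 (SE, adjusted p = 0.000304) in Actr3 KO against control. The decrease in dKO against control, -0.35 ± 0.11 (SE, adjusted p = 0.00835), was not called without control replicate 3 (-0.26, adjusted p = 0.0671).

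Itga9, whose alpha9 subunit pairs with beta1 and binds tenascin C and osteopontin, was nearly absent in the double knockout. Its normalized counts were 164, 147 and 164 with ciliobrevin D, 0.929, 0 and 0 in dKO, 237, 241 and 236 in Actr3 KO and 472, 509.8 and 517 in control. In reads, the 3 ciliobrevin D libraries held 403, the dKO libraries 1, the Actr3 KO libraries 718 and the control libraries 1690. Scaled for depth, the level was 756 times higher in Actr3 KO than in dKO, with an exact 95% counting interval of 135 to 29895. The corresponding ratio was 1585 for control over dKO (interval 284 to 62655) and 504 for ciliobrevin D over dKO (interval 89.9 to 19942). These intervals cover counting error only. Itga9 was also 2.09-fold lower in Actr3 KO than in control, -1.06 ± 0.20 (SE, adjusted p = 6.49e-05). With ciliobrevin D against Actr3 KO it was lower, at -0.59 ± 0.20 (SE, adjusted p = 0.013), a call lost with a pseudocount of 0.5 (adjusted p = 0.0612).

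Itgb7, a leukocyte subunit, was near the limit of measurement, at 5.89 to 33.3 normalized counts over all libraries. It was lower in dKO than in Actr3 KO, at -1.10 ± 0.31 (SE, adjusted p = 0.00386) and higher with ciliobrevin D than in dKO by 1.36 ± 0.31 (SE, adjusted p = 0.000507). Its call of ciliobrevin D over control, 0.83 ± 0.31 (SE, adjusted p = 0.0239), was lost without control replicate 3 (0.81, adjusted p = 0.0537) or ciliobrevin D replicate 2 (0.64, adjusted p = 0.115).

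Dag1 encodes dystroglycan, which is not an integrin and binds laminin and agrin through a sugar chain on its alpha part. It had 13893, 12853 and 11523 with ciliobrevin D, 17229, 17750.0 and 17799 in dKO, 26513, 28811 and 31531 in Actr3 KO and 22402, 20829.8 and 20205 in control. The 4 groups were separated, with ciliobrevin D below dKO and Actr3 KO the highest. Dag1 was 2.27-fold lower with ciliobrevin D than in Actr3 KO, -1.18 ± 0.07 (SE, adjusted p = 7.88e-12), 1.64-fold lower in dKO than in Actr3 KO, -0.72 ± 0.07 (SE, adjusted p = 1.71e-08), and 1.37-fold higher in Actr3 KO than in control, 0.45 ± 0.07 (SE, adjusted p = 9.87e-06). The decrease of ciliobrevin D against dKO was -0.47 ± 0.07 (SE, adjusted p = 5.45e-06). Against control, dKO was lower, at -0.26 ± 0.07 (SE, adjusted p = 0.00273), a value that quantile normalization brought to -0.02 (adjusted p = 0.769).

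Dividing each value by the gene's exon length allows levels of different genes to be set side by side. By this measure Itga3 made up most of the alpha subunits, 77.9% ± 0.488 with ciliobrevin D, 73.4% ± 1.57 in dKO, 76.4% ± 1.01 in Actr3 KO and 80.5% ± 0.876 in control (SD, n = 3 each), and Itgav was next with 12.0% ± 0.914 in control. The summed alpha subunits came to 13022 ± 393 normalized counts per kb with ciliobrevin D, 6555 ± 268 in dKO, 12352 ± 1133 in Actr3 KO and 12258 ± 109 in control. The dKO sum was thus the low one, and the other 3 groups were near each other.

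Among the beta subunits, Itgb1 made up 75.9% ± 1.56 with ciliobrevin D, 66.3% ± 1.32 in dKO, 66.8% ± 0.220 in Actr3 KO and 77.1% ± 1.14 in control. Itgb4 was 7.75% ± 0.244 with ciliobrevin D, 10.5% ± 0.307 in dKO and 8.67% ± 0.185 in Actr3 KO, against 4.31% ± 0.341 in control. Itgb5 was 15.6% ± 1.39 with ciliobrevin D, 21.5% ± 1.25 in dKO and 23.4% ± 0.310 in Actr3 KO, against 17.7% ± 0.959 in control. The summed beta subunits were 21018 ± 595 per kb with ciliobrevin D, 11455 ± 228 in dKO, 23536 ± 1932 in Actr3 KO and 19546 ± 1342 in control.

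Lama5 made up nearly all laminin alpha chains in every group, 97.3% ± 0.184 with ciliobrevin D, 96.6% ± 0.128 in dKO, 95.2% ± 0.155 in Actr3 KO and 97.8% ± 0.276 in control. Lama1, for all its change, reached 2.71% ± 0.122 of the alpha chains in Actr3 KO, against 0.496% ± 0.0158 in control. Of the beta chains, Lamb1 held 62.0% ± 1.20 in dKO and 71.1% ± 0.588 in control, and Lamb3 18.4% ± 0.585 in dKO and 11.7% ± 0.477 in control. The summed beta chains were 7534 ± 201 per kb with ciliobrevin D, 3669 ± 155 in dKO, 8599 ± 697 in Actr3 KO and 5215 ± 118 in control. The same sum for alpha chains was 8079.9 ± 456 with ciliobrevin D, 3541 ± 66.5 in dKO, 6802 ± 450.4 in Actr3 KO and 3624 ± 216 in control. In Actr3 KO both laminin sums exceeded control, whereas in dKO the beta sum was below control and the alpha sums of dKO and control differed by less than the SD of the control libraries.

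**Figure D3:**
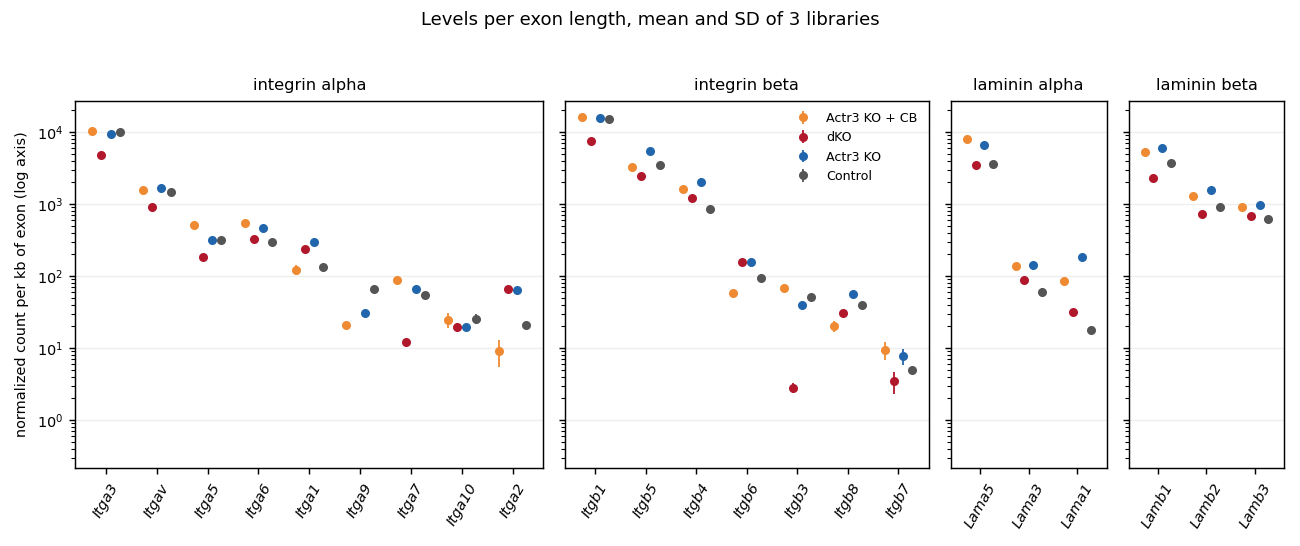
Normalized counts per kb of exon (vertical log axis) of the measured integrin alpha, integrin beta, laminin alpha and laminin beta genes (horizontal axis, ordered by control level), mean and SD of 3 libraries a group. Itga3, Itgb1, Lama5 and Lamb1 lead their families in all 4 groups; Itga9 in dKO (1 read in 3 libraries) is below 1 and not drawn.

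The genes that work with these proteins were followed in lists named from textbook roles and chosen with earlier results of these data known. For every list below, the counts stand beside these shares of all 13939 genes tested. In Actr3 KO against control, 34.4% were higher and 35.4% lower. Against Actr3 KO, 32.5% were higher and 33.2% lower in dKO, and 32.7% higher and 32.9% lower with ciliobrevin D. Of 26 listed basement membrane collagens and associated proteins 19 were tested. In Actr3 KO against control 12 were higher and 3 lower, with a median log2 fold change of 0.46. In dKO against Actr3 KO 2 were higher and 15 lower, with a median of -1.34, and with ciliobrevin D against Actr3 KO 1 was higher and 18 lower, with a median of -0.87. Col4a1 and Col4a2, the chains of the common collagen IV network, were 6.52-fold lower and 6.17-fold lower in dKO than in Actr3 KO, log2 fold changes of -2.71 ± 0.06 (SE, adjusted p = 1.65e-18) and -2.62 ± 0.07 (SE, adjusted p = 3.26e-18). Col4a1 averaged 9521 ± 554 with ciliobrevin D, 2666 ± 93.8 in dKO, 17449.5 ± 1810.4 in Actr3 KO and 12666 ± 402 in control (SD, n = 3 each). Col4a4, a chain of the collagen IV of mature kidney basement membranes, averaged 4512 ± 422 with ciliobrevin D, 3541 ± 136 in dKO, 12392 ± 548 in Actr3 KO and 4178 ± 362 in control, so it was high in untreated Actr3 KO alone.

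Fbln1, the matrix glycoprotein fibulin-1, was 5.26-fold higher in Actr3 KO than in control, 2.40 ± 0.09 (SE, adjusted p = 3.21e-15), and 5.74-fold lower in dKO than in Actr3 KO, -2.52 ± 0.09 (SE, adjusted p = 9.09e-16). Col4a6 was higher in Actr3 KO than in control by 0.96 ± 0.05 (SE, adjusted p = 8.57e-13). Npnt encodes nephronectin, a ligand of integrin alpha8beta1, whose alpha8 gene was not measured here. It was 3.06-fold lower with ciliobrevin D than in Actr3 KO, -1.62 ± 0.07 (SE, adjusted p = 2.96e-14). Ntn4, netrin-4, which binds the laminin gamma1 chain, was 2.60-fold lower with ciliobrevin D, -1.38 ± 0.08 (SE, adjusted p = 2.09e-12), and Col4a4 2.75-fold lower, -1.46 ± 0.07 (SE, adjusted p = 9.88e-14).

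Of 8 tested matrix ligands of integrins, 1 was higher and 5 lower in Actr3 KO than in control (median log2 fold change -0.70), none was higher and 7 were lower in dKO than in Actr3 KO (median -1.12), and 3 were higher and 3 lower with ciliobrevin D than in Actr3 KO (median 0.15). Tnc, tenascin C, was the 1 that was higher in Actr3 KO, by 1.31 ± 0.07 (SE, adjusted p = 1.28e-12). It was 9.61-fold lower in dKO than in Actr3 KO, -3.27 ± 0.07 (SE, adjusted p = 3.08e-19). Spp1, osteopontin, averaged 17695 ± 998 with ciliobrevin D, 4362 ± 228 in dKO, 6893 ± 590.1 in Actr3 KO and 28307 ± 1949 in control. It was 4.11-fold lower in Actr3 KO than in control, -2.04 ± 0.07 (SE, adjusted p = 7.48e-16), and 2.57-fold higher with ciliobrevin D than in Actr3 KO, 1.36 ± 0.07 (SE, adjusted p = 3.47e-13). Both Tnc and Spp1 encode ligands of the receptor that contains the Itga9 product.

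Thrombospondin 1 (Thbs1) and the matricellular protein Ccn1 were lower in dKO than in Actr3 KO, at -2.39 ± 0.07 (SE, adjusted p = 3.43e-17) and -1.76 ± 0.07 (SE, adjusted p = 1.36e-14), and lower with ciliobrevin D, at -0.66 ± 0.07 (SE, adjusted p = 3.42e-08) and -0.69 ± 0.07 (SE, adjusted p = 3.22e-08). Ccn2, connective tissue growth factor, was lower in Actr3 KO than in control, at -1.61 ± 0.08 (SE, adjusted p = 2.34e-13).

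The cytoplasmic adhesion complex changed less evenly. Of 31 tested genes 15 were higher and 9 lower in Actr3 KO than in control (median log2 fold change 0.11), where 34.4% and 35.4% of all genes were. In dKO against Actr3 KO, 7 were higher and 15 lower (median -0.18, all genes 32.5% and 33.2%). With ciliobrevin D against Actr3 KO, 8 were higher and 12 lower (median -0.09, all genes 32.7% and 32.9%). Talin links integrin tails to actin: Tln2 was 2.45-fold higher in Actr3 KO than in control, 1.29 ± 0.07 (SE, adjusted p = 5.43e-13), and 2.63-fold lower in dKO than in Actr3 KO, -1.40 ± 0.07 (SE, adjusted p = 1.71e-13). Vcl, vinculin, was lower in dKO than in Actr3 KO, at -1.19 ± 0.06 (SE, adjusted p = 1.34e-12), while Lims1, the adaptor PINCH1, was higher by 1.16 ± 0.06 (SE, adjusted p = 7.22e-13). The tetraspanin gene Cd9 and the caveolin gene Cav1 were lower in Actr3 KO than in control, at -1.78 ± 0.08 (SE, adjusted p = 3.03e-14) and -1.84 ± 0.08 (SE, adjusted p = 3.03e-14). With ciliobrevin D against Actr3 KO, Cd9 was higher by 1.25 ± 0.08 (SE, adjusted p = 7.88e-12), Fermt3, kindlin-3, higher by 2.32 ± 0.18 (SE, adjusted p = 3.25e-10), and Tns1, tensin 1, lower, at -1.44 ± 0.10 (SE, adjusted p = 5.19e-11).

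Hemidesmosomes join integrin alpha6beta4 to keratins, and 3 of 4 listed genes were tested. Plec, plectin, was higher in Actr3 KO than in control by 0.47 ± 0.09 (SE, adjusted p = 0.000152) and lower in dKO than in Actr3 KO, at -1.28 ± 0.09 (SE, adjusted p = 1.39e-10). Dst, dystonin, had 0.21 ± 0.08 (SE, adjusted p = 0.0327) and -1.13 ± 0.08 (SE, adjusted p = 1.5e-10) in the same comparisons. Cd151, the tetraspanin partner of laminin-binding integrins, was lower in Actr3 KO than in control, at -0.16 ± 0.06 (SE, adjusted p = 0.026). None of the 3 was called with ciliobrevin D by limma, edgeR or DESeq2, and 0 had an unadjusted p under 0.05 in any of them. In limma the 2 smallest p belonged to Cd151 at 0.12 ± 0.06 (SE, adjusted p = 0.0892) and Dst at 0.11 ± 0.08 (SE, adjusted p = 0.264).

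Of 18 tested genes of the dystroglycan complex and of its glycosylation, 11 were higher and 4 lower in Actr3 KO than in control (median 0.34), 4 higher and 12 lower in dKO than in Actr3 KO (median -0.46), and 2 higher and 12 lower with ciliobrevin D (median -0.33). Large2 encodes an enzyme that extends the laminin-binding sugar of dystroglycan. It was 2.26-fold higher in Actr3 KO than in control, 1.17 ± 0.07 (SE, adjusted p = 2.79e-12), and lower with ciliobrevin D than in Actr3 KO, at -1.39 ± 0.07 (SE, adjusted p = 2.24e-13). Further glycosylation enzymes moved both ways: in dKO against Actr3 KO, Pomgnt2 was lower, at -0.95 ± 0.08 (SE, adjusted p = 2.87e-09) and Rxylt1 higher by 0.79 ± 0.07 (SE, adjusted p = 1.23e-09), and with ciliobrevin D, B4gat1 was lower, at -1.09 ± 0.06 (SE, adjusted p = 4.04e-12). Of the cytoplasmic partners, Dtna, alpha-dystrobrevin, was higher in Actr3 KO than in control by 1.89 ± 0.09 (SE, adjusted p = 1.46e-13), and Sntb2, a syntrophin, higher with ciliobrevin D by 1.07 ± 0.07 (SE, adjusted p = 1.05e-11).

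Of 10 remaining laminin and integrin subunits and partners 5 were tested. In Actr3 KO against control 1 was higher and 2 lower, in dKO against Actr3 KO 3 were higher and 1 lower, and with ciliobrevin D none was higher and 3 were lower. Itgb2, the beta2 subunit best known from leukocytes, was 5.11-fold higher in dKO than in Actr3 KO, 2.35 ± 0.17 (SE, adjusted p = 1.58e-10), at 178 ± 22.6 normalized counts in dKO and 34.1 ± 4.38 in Actr3 KO (SD, n = 3 each). Ptprc, a leukocyte marker, averaged 13.0 with ciliobrevin D, 4.71 in dKO, 1.66 in Actr3 KO and 26.3 in control, and its part in the Itgb2 value was not tested. Itga2b, a platelet subunit, was higher in dKO than in Actr3 KO by 0.46 ± 0.11 (SE, adjusted p = 0.0011).

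**Figure D4:**
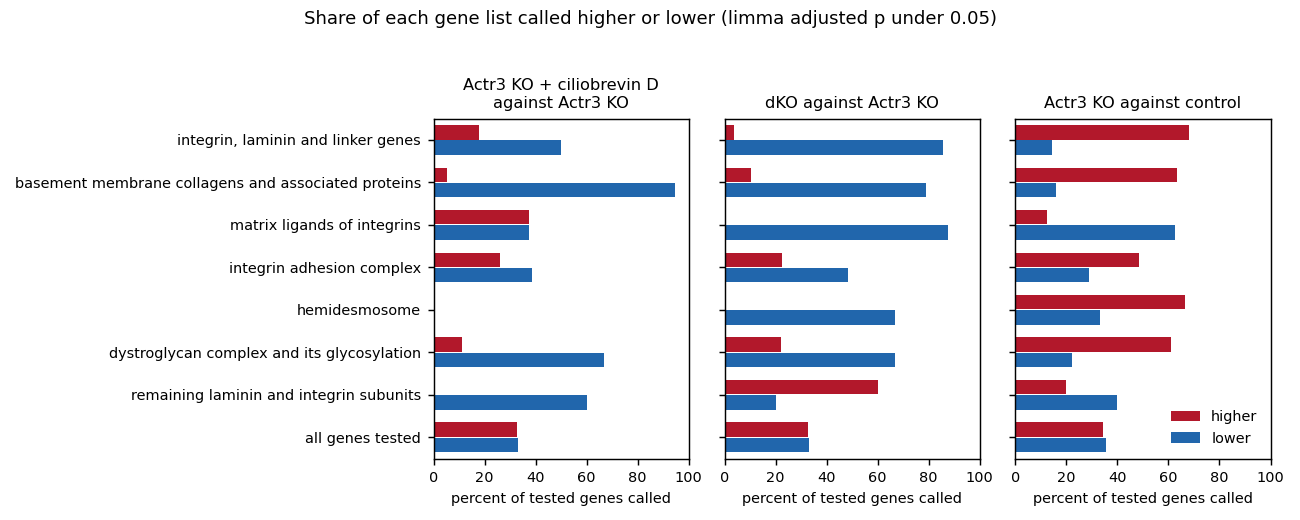
Percent of tested genes in each list (rows) called higher (red) or lower (blue) by limma at an adjusted p under 0.05 (horizontal axis) in ciliobrevin D-treated Actr3 KO against Actr3 KO (left), dKO against Actr3 KO (centre) and Actr3 KO against control (right). Of all 13939 genes 33.2% were lower in dKO than in Actr3 KO; of the 28 tested genes described here 24 were, and of the basement membrane collagens and associated proteins 15 of 19.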

How the data were processed

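Poly(A) RNA of 12 mIMCD3 libraries was sequenced. Per the submitters' processing notes the tools were DESeq2 2.11.40.7, featureCounts 2.0.1, HISAT2 2.2.1 and fastp 0.23.2, with builds mm10 and GRCm38; the sources used here give no options for them. The deposited values are a signal per gene, normalized counts in which the authors divided whole reads by a factor for each library, as 100% of values were multiples of 1 step (tolerance 0.01 reads). They carry no correction for gene length. Of the 27179 Entrez IDs, 25275 matched a symbol in RefSeq's table for GRCm38.p6.

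Genes at 10 or more in at least 3 libraries (13939) were put on the log2(value + 1) scale. In R 4.3.3, limma 3.58.1 fitted them with a trend, two-sided, in 1 model of all 12 libraries with 6 comparisons. Calls were made where p, adjusted by Benjamini-Hochberg, was under 0.05, and every adjusted p and log2 fold change printed is from this fit unless an alternative is named. Fold changes of low genes are understated on this scale. The test was checked on simulated counts with the same dispersion for every gene and few genes changed. That setting is simpler than these data, where most genes were called, so the check does not cover it. Counts of replicates differed beyond sampling noise (chi-square over its degrees of freedom, 4.48 to 16.9), so none was treated as a repeated library. Levels per kb use GENCODE vM21 exon unions on GRCm38, and promoter windows are RefSeq GRCm38.p6.

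Alternatives were DESeq2 1.42.0 and edgeR 4.0.16 run on the recovered reads, TMM and quantile scaling, other pseudocounts and filters, fits of only the groups compared, a replicate block, subtraction of each chromosome's median and leaving out each library. Named genes are all 33 members, Actr3, Ift88 and, for each list and comparison described, the 3 called genes with the smallest adjusted p, or the 2 with the smallest p where none was called; Ptprc, Lrp2, Slc34a1, the epithelial markers and Itgb2 values by group were added for context. A few genes that this rule names are not reported here. The members and lists were chosen with earlier results of these data known.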

Additional observations from a re-analysis of the deposited data

How the results depend on the processing

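Direction held for nearly all called genes: across the alternatives, called values turned in Itga10 for dKO against control (0.057) and Itgb5 for ciliobrevin D against dKO (-0.011), both after removal of chromosome medians, which also turned the uncalled Itga5 (-0.011) in Actr3 KO against control, Itga2 (-0.074) and Itga10 (0.34) in dKO against Actr3 KO, and Itga10 with ciliobrevin D against control (0.00017) and against dKO (-0.056). Quantile normalization turned uncalled values in Itgb1 for Actr3 KO against control (-0.046), Itgb6 (-0.030) and Itga10 (0.097) for dKO against Actr3 KO, Itgb1 with ciliobrevin D against Actr3 KO (-0.073), Lama5 for dKO against control (0.27), Itga3 (-0.16) and Itgb1 (-0.12) with ciliobrevin D against control and Agrn with ciliobrevin D against dKO (-0.45). After that scaling Lama5 was called higher in dKO than in control (adjusted p = 0.000425). Itga3 was then called lower with ciliobrevin D than in control (adjusted p = 0.0273). For Agrn with ciliobrevin D against dKO the smallest adjusted p over all alternatives was 4.04e-05. Itga5 in Actr3 KO against control was -0.00066 after TMM rescaling and -0.0053 with the replicate block. Leaving out 1 library gave ranges that crossed 0 for Itga5 (-0.062 to 0.061), Itga3 (-0.14 to 0.0077) and Itgb1 (-0.0028 to 0.13) in Actr3 KO against control, Itgb6 (-0.036 to 0.050) and Itga10 (-0.12 to 0.068) in dKO against Actr3 KO, Itgb1 (-0.028 to 0.088) and Lama3 (-0.098 to 0.060) with ciliobrevin D against Actr3 KO, and Itga10 (-0.22 to 0.079) with ciliobrevin D against control. The causes were not tested. Asking for a 2-fold change left, of all genes, 1691 in Actr3 KO against control, 1302 with ciliobrevin D and 1325 in dKO against Actr3 KO, 1470 with ciliobrevin D and 1736 in dKO against control, and 2165 with ciliobrevin D against dKO. These totals, of 13939 genes tested, count both directions together, so they are not a background for a count in a single direction. Of the 28 genes the 2-fold limit left 6 higher in Actr3 KO than in control, 12 lower in dKO and 0 higher and 6 lower with ciliobrevin D than in Actr3 KO, 2 higher and 5 lower in dKO and 3 higher and 4 lower with ciliobrevin D than in control, and 12 higher and 3 lower with ciliobrevin D than in dKO. At 2-fold, Nid1, Nid2 and Itga9 were also left as lower in Actr3 KO than in control, and Nid1 as higher in dKO than in Actr3 KO. With genes under a mean of 50 left out, 0 were higher in dKO than in Actr3 KO, because Nid1 is then not tested. The values do not settle whether replicate numbers pair the libraries. Deviations of same-numbered libraries correlated at -0.0955 to 0.206 and those of other numbers at -0.235 to 0.263, ranges that overlap. Of 11 numbered libraries, 7 correlated best with a library of their own number. Fits with the replicate block, which also leave out the control library with no number, called 9080, 9158, 9118, 8749, 8378 and 10169 genes in Actr3 KO against control, dKO and ciliobrevin D against Actr3 KO, dKO and ciliobrevin D against control and ciliobrevin D against dKO, where fits without it called 9724, 9164, 9136, 9350, 9071 and 10226. Leaving out that library alone gave 8352 with ciliobrevin D, 8870 in dKO and 9094 in Actr3 KO, each against control. On the recovered reads edgeR called 9856, 9236, 9143, 9483, 9107 and 10239 genes and DESeq2 9587, 9007, 8899, 9230, 8886 and 9977, in the same order. Depth limits Itga9 in dKO, where 1 read was seen, and Itgb7 and Nid1.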
